A study of Homo sapiens with 8 samples.

Results

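The cyclin-dependent kinase (CDK) inhibitor genes are 7 human genes whose products hold back the kinases that drive the cell cycle: CDKN1A, CDKN1B, CDKN1C, CDKN2A, CDKN2B, CDKN2C and CDKN2D. Members were chosen by name, through the array's probe sets (groups of short probes that read out a transcript) annotated with 1 of these symbols and no other. This gave 14 probe sets for 6 of the 7 genes, of 54613 probe sets in the table. CDKN2C had no probe set by this rule and was not analysed here. Where a gene had several probe sets, the brightest on average across the 8 arrays was taken for it, and the rest are given beside it. Probe sets were tested when their second-highest value reached 4.49, the median of all log2 values. Of the 14, 10 passed, at least 1 for each of the 6 genes, within 13381 genes tested in all.

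HCT116, an established human colorectal carcinoma line, was treated in culture for 10 h and profiled on Affymetrix U133 Plus 2.0 arrays, with 2 arrays in each of 4 groups. Largazole was given at 20 nM, FK228 (romidepsin) at 20 nM and SAHA (vorinostat) at 2 µM, and the controls received the vehicle for the same 10 h. All 3 compounds inhibit histone deacetylases (HDACs). Largazole is a cyclic depsipeptide with a thioester, FK228 is a bicyclic depsipeptide with a disulfide, and SAHA is a hydroxamic acid. Each treatment was compared with vehicle to ask how the inhibitor genes responded, and largazole was compared with FK228, given at the same dose and time. SAHA differed in dose from the other compounds, so its values stand beside theirs without a test. All groups share the line's own background: HCT116 keeps functional p53, and its CDKN2A is known to have a frameshifted copy and a methylated copy, so a transcript of that gene need not give an active p16.

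The family has 2 branches. The Cip/Kip proteins p21 (CDKN1A), p27 (CDKN1B) and p57 (CDKN1C) bind cyclin-CDK complexes of several kinds, while the INK4 proteins p16 (CDKN2A), p15 (CDKN2B), p18 (CDKN2C) and p19 (CDKN2D) bind CDK4 and CDK6 and keep them from D-type cyclins. By restraining these kinases they leave the retinoblastoma protein RB able to hold E2F factors in check at the entry to S phase. CDKN1A is a textbook gene of the HDAC inhibitor response: GC boxes close to its start, bound by the factors Sp1 and Sp3, are known to be needed for its induction by such compounds. p27 is best known for its control after transcription, through degradation by the SCF ubiquitin ligase with SKP2.

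Array medians lay between 4.47 and 4.51 on the log2 scale. The 2 arrays of a group correlated at 0.995 to 0.997 across all 54613 probe sets, tested or not, which are not independent. The median log2 change over all genes was within 0.019 of 0 in each comparison. Mean log2 level of 10 colorectal epithelial markers was 8.72 to 8.93 per array, with 8 of the 10 at or above the filter value on every array and CDH17 near the bottom of the scale (group means 2.92 to 3.26). Mean level of 7 leukocyte markers was 3.88 to 4.05 per array. Of these, CD79A (group means 5.54 to 5.59) and ITGAM (5.05 to 5.24) were above the filter value on all arrays and the others, PTPRC at 2.47 to 2.65 among them, were not. Of 8 fibroblast and endothelial markers (mean 4.26 to 4.45), 2 were above it on all arrays, and COL1A1 went from 7.13 with vehicle to 8.40, 7.85 and 7.73 with largazole, SAHA and FK228. Of 7 markers of other epithelial lines (mean 5.27 to 5.61), 4 were above it on all arrays, and GATA3 went from 5.37 to 7.41, 7.19 and 7.41. The part of these genes in the results was not tested. The labels say only that the arrays were duplicates, so p-values measure the spread between these samples, which may be technical. Fewer cells with a transcript and less transcript per cell cannot be told apart in such bulk RNA.

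RefSeq promoter sequences (GRCh38.p14) were at hand for 5 of the 6 measured genes. Those of CDKN1A, CDKN2D, CDKN2B and CDKN1B are shown because the first 3 rose and the last fell with each compound, and because the GC box is the element tied to the CDKN1A response. Each is the 250 bases before a listed transcription start, 5′ to 3′ on the gene's strand, with every GC box (GGGCGG, or CCGCCC on the other strand) in capitals. The windows are chr6:36678464-36678713 on the plus strand for CDKN1A, chr19:10568980-10569229 on the minus strand for CDKN2D, chr9:22009306-22009555 on the minus strand for CDKN2B and chr12:12717118-12717367 on the plus strand for CDKN1B.
CDKN1A: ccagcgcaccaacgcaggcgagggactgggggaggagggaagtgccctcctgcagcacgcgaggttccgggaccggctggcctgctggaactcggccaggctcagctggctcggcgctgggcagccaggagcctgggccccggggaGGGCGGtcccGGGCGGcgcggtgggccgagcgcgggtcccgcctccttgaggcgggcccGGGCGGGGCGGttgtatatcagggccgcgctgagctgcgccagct
CDKN2D: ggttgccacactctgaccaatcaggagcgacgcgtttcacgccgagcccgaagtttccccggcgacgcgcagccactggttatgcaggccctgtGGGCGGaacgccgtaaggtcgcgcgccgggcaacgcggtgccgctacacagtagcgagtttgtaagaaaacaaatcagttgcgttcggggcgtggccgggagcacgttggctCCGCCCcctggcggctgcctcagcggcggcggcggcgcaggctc
CDKN2B: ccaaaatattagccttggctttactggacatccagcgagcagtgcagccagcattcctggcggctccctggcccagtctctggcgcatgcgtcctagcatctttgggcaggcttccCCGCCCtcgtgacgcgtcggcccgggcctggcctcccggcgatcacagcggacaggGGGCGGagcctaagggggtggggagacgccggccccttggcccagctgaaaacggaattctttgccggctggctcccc
CDKN1B: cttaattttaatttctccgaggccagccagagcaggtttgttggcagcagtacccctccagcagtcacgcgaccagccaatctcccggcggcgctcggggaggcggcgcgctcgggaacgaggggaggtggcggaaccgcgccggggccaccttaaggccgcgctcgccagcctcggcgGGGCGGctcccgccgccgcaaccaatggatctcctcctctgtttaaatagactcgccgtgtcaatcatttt

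The CDKN1A window held 4 GC boxes, of which a pair overlap in the run nearest the start, where the last begins 40 bases upstream. CDKN2D had 2, the nearer 44 bases before the start and in the reverse orientation, and CDKN2B had 2, the nearer at 78 bases. CDKN1B, which fell, also had 1, at 71 bases, together with 2 CCAAT boxes (CCAAT or ATTGG), and CDKN2D had 1 CCAAT box. CDKN2A has 2 listed starts: the window of the upstream start, that of the ARF transcript, held 0 GC boxes, and the window of the p16 start held 1. Of 35116 windows of the same length in the table, 42.6% held a GC box and 32% a CCAAT box. A GC box was thus present in windows of genes that rose and of genes that fell. GC content of the printed windows was 76.4% for CDKN1A, 67.6% for CDKN2D, 66.4% for CDKN2B and 64.4% for CDKN1B, against a median of 58% over all windows. These matches describe the letters only.

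All 6 measured CDK inhibitor genes were called changed with every compound in the main fit, and in the same direction each time. CDKN1A, CDKN1C, CDKN2B and CDKN2D rose, and CDKN1B and CDKN2A fell (limma, adjusted p under 0.05 over all tested probe sets). Both branches of the family therefore held genes that rose and a gene that fell. In the INK4 branch the fall rests on CDKN2A alone, whose changes were small (-0.34, -0.37 and -0.24 with largazole, SAHA and FK228). Its FK228 call stood at the threshold (limma adjusted p = 0.0495) and was lost under many alternatives, as described below. Changes of this kind were common on these arrays: of all 13381 genes, 21.9% were called higher and 23.2% lower with largazole, 22.1% higher and 25.2% lower with SAHA, and 25.7% higher and 27.1% lower with FK228. The median log2 change of the 6 genes was 1.27 with largazole, 1.16 with SAHA and 1.17 with FK228, beside medians over all genes of 0.0016, -0.019 and 0.013. The 3 comparisons share their vehicle arrays, so they do not repeat the finding independently.

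**Figure D1:**
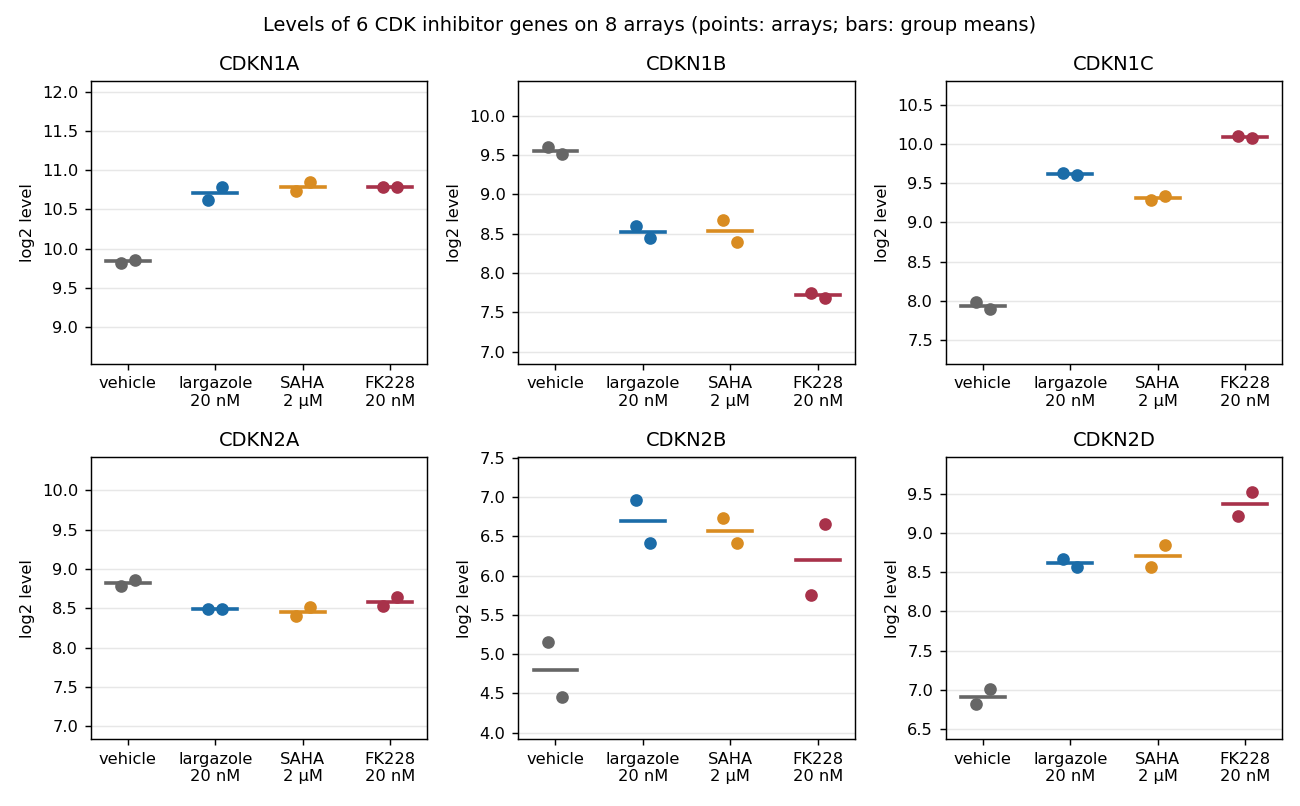
Log2 level of each of the 6 CDK inhibitor genes (y axis, each panel spanning the same number of log2 units) in the 4 groups (x axis); points are single arrays and bars are group means of 2. Treated arrays lie above both vehicle arrays for CDKN1A, CDKN1C, CDKN2B and CDKN2D and below them for CDKN1B and CDKN2A.

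Among the Cip/Kip genes, CDKN1A, which encodes p21, rose a little under 2-fold with each compound. Its log2 level was 9.82 and 9.86 on the vehicle arrays, 10.62 and 10.79 with largazole, 10.73 and 10.85 with SAHA, and 10.78 and 10.79 with FK228. Every treated array lay above both vehicle arrays, and the treated groups overlapped one another. The log2 change was 0.86 ± 0.091 (SE, n = 2) with largazole, 1.81-fold (limma adjusted p = 0.000251). It was 0.95 with SAHA (1.93-fold, limma adjusted p = 0.000137) and 0.94 with FK228 (1.92-fold, limma adjusted p = 9.56e-05). Its rise was outranked by many others: 790 of the 13381 genes had a higher change with largazole, 650 with SAHA and 931 with FK228. A single probe set reads CDKN1A.

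CDKN1C, which encodes p57 and is an imprinted gene at chr11:2883218-2885775, rose more. The vehicle arrays stood at 7.98 and 7.90, those with largazole at 9.63 and 9.60, those with SAHA at 9.28 and 9.33, and those with FK228 at 10.10 and 10.07. The groups did not overlap, and arrays of a group differed by less than 0.1. The log2 change was 1.67 ± 0.078 (SE, n = 2) with largazole (3.19-fold, limma adjusted p = 9.6e-06), 1.36 with SAHA (2.57-fold, limma adjusted p = 1.64e-05) and 2.15 with FK228 (4.43-fold, limma adjusted p = 1.79e-06). Only 135 of 13381 genes had a higher change with largazole, 255 with SAHA and 90 with FK228. This gene has 5 probe sets. The other 3 that passed the filter rose by 1.45 to 1.58 with largazole, 1.23 to 1.34 with SAHA and 1.85 to 1.94 with FK228, all called. The fifth stayed between 3.66 and 4.38 on all arrays, under the filter value, and was not tested.

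CDKN1B, which encodes p27, fell with all 3 compounds. Its level was 9.61 and 9.51 with vehicle and 8.60 and 8.44 with largazole. SAHA gave 8.68 and 8.40, and FK228 gave 7.75 and 7.68. No treated array reached a vehicle array, largazole and SAHA arrays overlapped, and both FK228 arrays lay below all others. The log2 change was -1.04 ± 0.12 (SE, n = 2) with largazole, 2.06-fold lower (limma adjusted p = 0.000308), and -1.02 with SAHA, 2.03-fold lower (limma adjusted p = 0.000298). With FK228 it was -1.85, 3.60-fold lower (limma adjusted p = 1.28e-05), and 263 of 13381 genes had a lower change. p21 and p57 transcripts thus rose while the transcript of the third member of their branch fell.

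In the INK4 branch, CDKN2D, which encodes p19, gave the largest rise of the 6 genes with FK228. It read 6.82 and 7.01 with vehicle, 8.67 and 8.57 with largazole, 8.56 and 8.85 with SAHA, and 9.22 and 9.52 with FK228. The treated arrays all lay well above vehicle, the largazole and SAHA arrays were intermingled, and the FK228 arrays were the highest. The rise was 1.70 ± 0.14 (SE, n = 2) with largazole (3.26-fold, limma adjusted p = 7.87e-05), 1.79 with SAHA (3.46-fold, limma adjusted p = 5.62e-05) and 2.46 with FK228 (5.49-fold, limma adjusted p = 8.75e-06). With FK228, 55 of 13381 genes had a higher change. The second probe set of CDKN2D lay between 3.79 and 4.24 on all arrays and was not tested. Averaging both probe sets gave log2 changes of 1.05, 0.92 and 1.37 with largazole, SAHA and FK228, all still called.

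CDKN2B, the gene of p15 and a classic target of TGF-beta, rose from a low vehicle level and had the largest standard error of the 6. Its level was 5.15 and 4.46 with vehicle, the second of these under the filter value, then 6.97 and 6.42 with largazole, 6.74 and 6.41 with SAHA, and 5.75 and 6.66 with FK228. Treated arrays were again all above vehicle, but they overlapped each other, and the 2 FK228 arrays differed by more than the largazole and FK228 means. The change was 1.89 ± 0.34 (SE, n = 2) with largazole (3.71-fold, limma adjusted p = 0.00324), 1.77 with SAHA (3.42-fold, limma adjusted p = 0.00399) and 1.40 with FK228 (2.65-fold, limma adjusted p = 0.0103). The FK228 call ended without FK228 replicate 2 (0.95, limma adjusted p = 0.0517) or without vehicle replicate 2 (1.06, limma adjusted p = 0.0684). The other probe set was between 3.94 and 4.99, passed the filter value on 1 array and was not tested. It changed by -0.17, 0.12 and 0.48 with largazole, SAHA and FK228, and averaging both probe sets gave 0.86, 0.95 and 0.94, all called.

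CDKN2A, the gene of p16 and ARF, changed least. Its main probe set was at 8.79 and 8.86 with vehicle, 8.49 and 8.49 with largazole, 8.40 and 8.51 with SAHA, and 8.53 and 8.64 with FK228. All treated arrays lay below both vehicle arrays, by small steps. The log2 change was -0.34 ± 0.086 (SE, n = 2) with largazole (1.26-fold lower, limma adjusted p = 0.0155), -0.37 with SAHA (1.29-fold lower, limma adjusted p = 0.00947) and -0.24 with FK228 (1.18-fold lower, limma adjusted p = 0.0495). A second tested probe set was called with all 3 compounds too, at -0.35, -0.36 and -0.31. The third lay between 3.77 and 4.26 and was not tested. The FK228 call of the main probe set stood at the threshold. It ended with any of the 8 arrays left out (-0.30 to -0.19, limma adjusted p = 0.0537 to 0.21) and, for instance, with arrays scaled to equal medians of the ribosomal protein genes (-0.19, limma adjusted p = 0.125). The largazole call ended without largazole replicate 1, largazole replicate 2 or vehicle replicate 2 (limma adjusted p = 0.0723 to 0.0838), and the SAHA call ended without SAHA replicate 1 or vehicle replicate 2 (limma adjusted p = 0.0538 and 0.057).

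**Figure D2:**
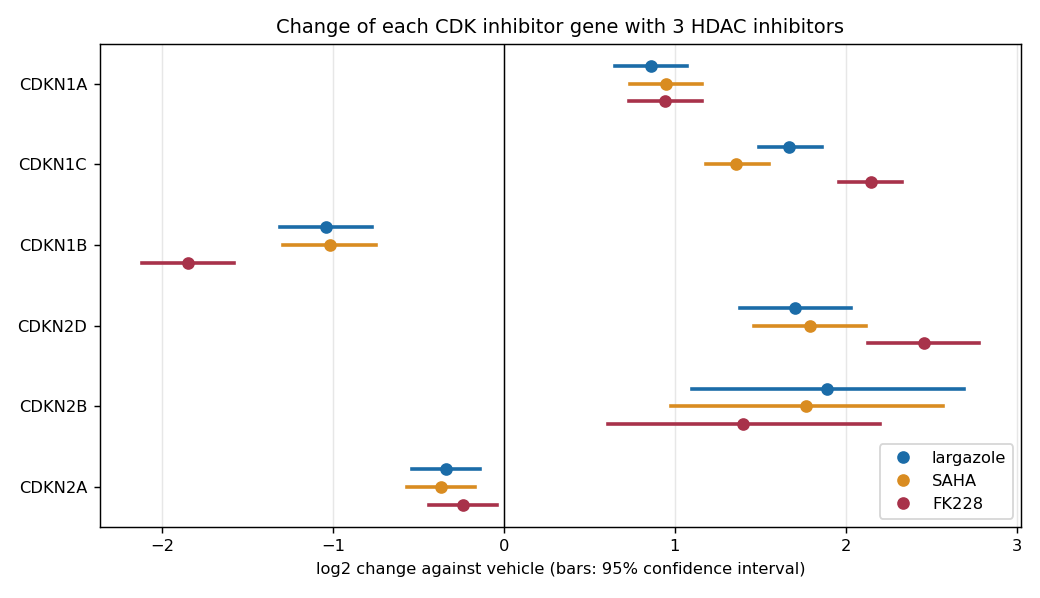
Log2 change against vehicle (x axis) of each CDK inhibitor gene (y axis) with largazole, SAHA and FK228; points are differences of group means of 2 arrays and bars are 95% confidence intervals from limma. CDKN1B and CDKN2A lie left of 0 and the other 4 genes right of it, with the widest intervals at CDKN2B.

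**Figure D3:**
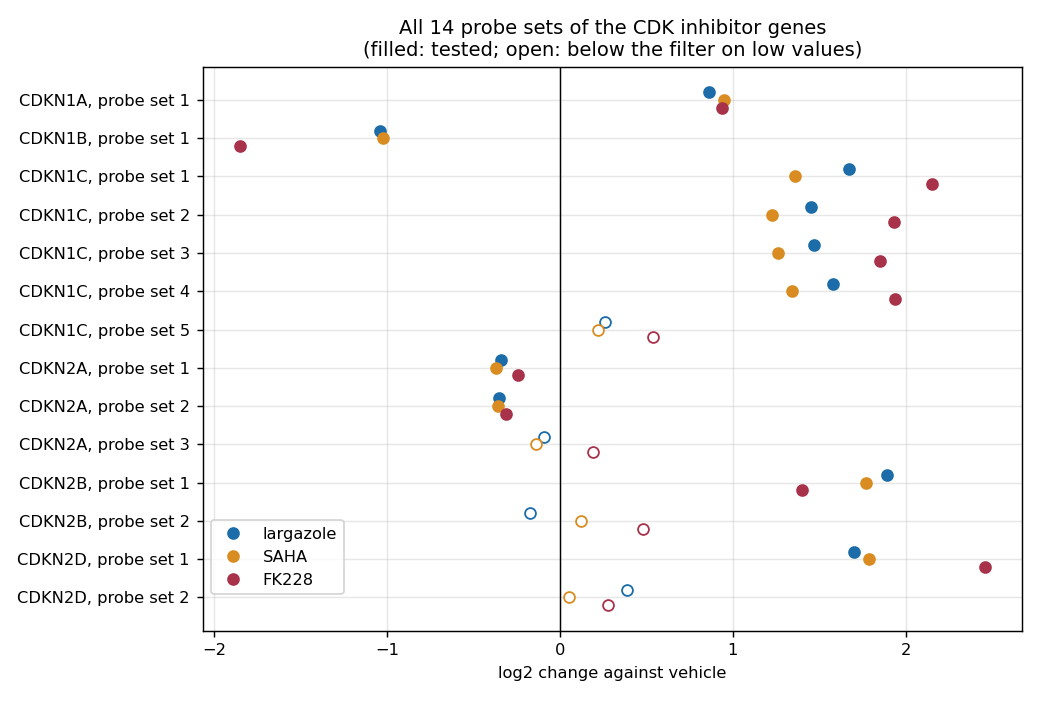
Log2 change against vehicle (x axis) of all 14 probe sets of the 6 genes (y axis, numbered from the highest mean level), with filled points for the 10 tested probe sets and open points for the 4 below the filter on low values. The 4 tested CDKN1C probe sets rose by 1.23 to 2.15, and both tested CDKN2A probe sets fell.

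Largazole and FK228, at the same dose and time, differed at 3 of the 6 genes. CDKN1B was higher with largazole, and CDKN1C and CDKN2D were lower. In this comparison 4.88% of all genes were called higher and 4.19% lower. The log2 difference, largazole minus FK228, was 0.81 ± 0.12 for CDKN1B (95% confidence interval 0.54 to 1.07, limma adjusted p = 0.0105), so the fall of p27 transcript was deeper with FK228. For CDKN2D it was -0.75 ± 0.14 (-1.08 to -0.43, limma adjusted p = 0.0218) and for CDKN1C -0.47 ± 0.078 (-0.65 to -0.29, limma adjusted p = 0.0156), so both rises were larger with FK228. At each of these genes the 2 groups did not overlap, but neither did they at CDKN2A, which was not called. The share of all genes whose groups do not overlap was not determined, here or against vehicle, so such separation is description only. A second CDKN1C probe set differed by -0.48 (limma adjusted p = 0.0185), and the other 2 tested, at -0.38 and -0.36, were not called (limma adjusted p = 0.065 and 0.113).

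No difference between largazole and FK228 was called at CDKN1A, CDKN2A or CDKN2B. The interval was narrow at CDKN1A, whose difference of -0.084 had a 95% confidence interval of -0.30 to 0.13 (limma adjusted p = 0.613). At CDKN2A the difference was -0.10 with an interval of -0.30 to 0.10 (limma adjusted p = 0.525). That leaves room for a difference as large as the gene's whole FK228 change against vehicle (-0.24). At CDKN2B the difference of 0.49 had an interval of -0.31 to 1.28 (limma adjusted p = 0.42), which leaves room for a difference of more than 2-fold, and it turned to -0.083 when both probe sets were averaged. The differences between the compounds rested on few arrays. Without largazole replicate 1 or FK228 replicate 2 none of the 6 genes was called, and without largazole replicate 2 only CDKN1B was. CDKN1B lost its call without largazole replicate 1 (0.72, limma adjusted p = 0.0873) or FK228 replicate 2 (0.77, limma adjusted p = 0.0501). CDKN1C lost it with any of the 4 arrays compared left out (limma adjusted p = 0.0616 to 0.103), and CDKN2D with either largazole array or FK228 replicate 2 left out (limma adjusted p = 0.0892 to 0.116). The direction held in all of these.

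The genes next to the inhibitors on the chromosome changed in both directions. The nearest tested genes, 2 on each side and 20 in all without the inhibitors themselves, included 2 called higher and 7 lower with largazole, 4 and 8 with SAHA, and 3 and 8 with FK228. Of all 13381 genes, 21.9% were called higher and 23.2% lower with largazole. With SAHA these shares were 22.1% and 25.2%, and with FK228 25.7% and 27.1%. CDKN2A-AS1, counted here as higher with each compound, passed the filter only through its treated arrays. Whether the neighbours differ from all genes was not tested. At CDKN1A, the splicing factor gene SRSF3 on the lower-coordinate side fell (-0.50, -0.40 and -0.27 with largazole, SAHA and FK228), STK38 beyond it was not called (0.10, 0.089 and 0.12), PPIL1 on the other side fell (-0.71, -0.68 and -0.94), and C6orf89 rose (0.89, 1.22 and 1.19, the SAHA value at 0.77 with probe sets averaged). Without probe sets named _x_at or _s_at, which may read several transcripts, SRSF3 was at -0.048 with largazole (limma adjusted p = 0.839) and -0.32 with FK228 (limma adjusted p = 0.131), both calls lost, and at -0.61 with SAHA. Its FK228 call also ended, among other settings, without FK228 replicate 1, FK228 replicate 2 or vehicle replicate 1 (limma adjusted p = 0.0671, 0.0936 and 0.129). GPR19, whose listed start lies 122 bases from that of CDKN1B in the opposite orientation, was not called with any compound (0.28, 0.29 and 0.12; limma adjusted p = 0.0629 to 0.407). APOLD1, the next gene beyond CDKN1B, fell (-1.16, -1.07 and -1.13). Its treated arrays read 4.39 to 4.86, near the filter value of 4.49, and FK228 replicate 1 lay below that value. GPRC5A fell further with FK228 (-1.46) than with largazole (-0.30), a log2 difference of 1.16 (limma adjusted p = 0.00197). With probe sets averaged GPRC5A was at -0.94 with FK228 and -0.44 with SAHA, and the difference was 0.64. Its largazole call ended without any of the vehicle, largazole or SAHA arrays (limma adjusted p = 0.053 to 0.208).

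At the INK4 locus on chromosome 9, CDKN2A and CDKN2B moved in opposite directions. CDKN2A (chr9:21967752-21995324) fell while CDKN2B (chr9:22002903-22009313), 7579 bases further on, rose. CDKN2A-AS1, annotated as an antisense transcript that meets the end of CDKN2A (chr9:21967139-21967754), read 4.25 and 3.92 with vehicle, both below the filter value. It read 5.43 and 5.12 with largazole, 4.92 and 4.74 with SAHA, and 6.99 and 6.67 with FK228, with no overlap between groups. Because the vehicle arrays gave no level above the filter value, the rise has only a lower bound: against that value the treated means were at least 1.72-fold higher with largazole, 1.26-fold with SAHA and 5.05-fold with FK228. The measured log2 differences were 1.19 ± 0.17 (SE, n = 2), 0.75 and 2.75. All 3 were called by limma, but the probe set passed the filter only through its treated arrays. These calls therefore give no support of their own to the rise. Between largazole and FK228, all of whose arrays passed the filter value, it differed by -1.56 ± 0.17 (limma adjusted p = 0.00404), with the FK228 arrays higher. Without vehicle replicate 2 the measured difference with SAHA was 0.58. MTAP, a methionine salvage gene on the far side, fell (-0.65, -0.54 and -0.98). Gene and antisense transcript share only a few bases, and whether the probes of either read the other was not tested.

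Around CDKN1C, the imprinted antisense transcript KCNQ1OT1 rose with SAHA (0.82, limma adjusted p = 0.00772) and FK228 (1.12, limma adjusted p = 0.00136), and was at 0.46 with largazole (limma adjusted p = 0.08). With its probe sets averaged it was at 0.49 with FK228 and at 0.22 with SAHA, the SAHA call lost (limma adjusted p = 0.182). That call also ended without vehicle replicate 1 (0.63, limma adjusted p = 0.0519). KCNQ1DN, the nearest tested gene on that side, was not called (0.14, -0.06 and 0.025), and the transporter gene SLC67A1 on the other side fell (-0.24, -0.45 and -0.54), a largazole call that ended without any 1 of the 8 arrays (limma adjusted p = 0.0504 to 0.183). At CDKN2D, KRI1 and AP1M2 on either side were not called with any compound, and SLC44A2 fell (-0.39, -0.69 and -0.58). The SLC44A2 call with largazole ended without largazole replicate 1 (limma adjusted p = 0.0512). None of the 4 tested neighbours of CDKN2D was called higher with any compound.

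**Figure D4:**
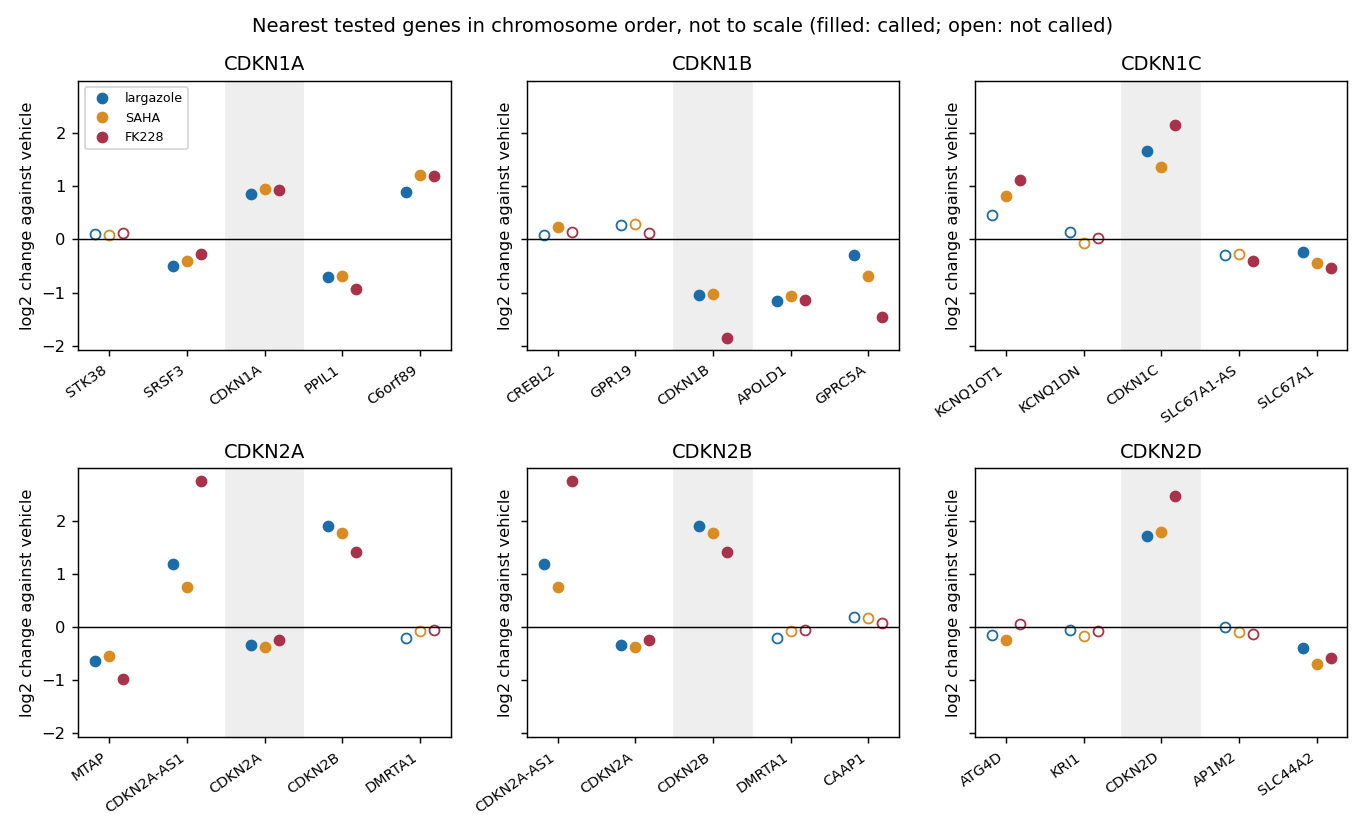
Log2 change against vehicle (y axis) of each CDK inhibitor gene (shaded) and of the nearest tested genes on either side (x axis, in chromosome order and not to scale) with largazole, SAHA and FK228; filled points were called. At chromosome 9 CDKN2A fell between CDKN2A-AS1 and CDKN2B, which both rose.

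The genes that the inhibitors act on or answer to were grouped in 7 lists by role. Over all 13381 genes, 21.9% were called higher and 23.2% lower with largazole. The shares were 22.1% and 25.2% with SAHA, and 25.7% and 27.1% with FK228. No list was tested against these shares. Of 8 tested CDKs and activating subunits, 3 rose and 2 fell with largazole, 4 and 2 with SAHA, and 4 and 3 with FK228. CDK4 (-0.50, -0.58 and -0.48 with largazole, SAHA and FK228) and CDK6 (-0.67, -0.61 and -0.96), the kinases that p15, p16 and p19 bind, fell with each compound, while MNAT1, an assembly factor of the CDK-activating kinase, rose (0.64, 0.71 and 0.83). Of 7 tested cyclins, 1 rose and 5 fell with largazole, 1 and 4 with SAHA, and 2 and 4 with FK228, with list medians of -0.52, -0.48 and -0.71. Cyclin D1, CCND1, fell (-1.01, -1.06 and -1.48), cyclin D3, CCND3, rose (1.17, 1.19 and 1.35), and cyclin B1, CCNB1, fell (-0.64, -0.65 and -0.78). With all probe sets averaged CCND3 was at 0.64, 0.48 and 0.76, CCND1 at -0.67 with largazole, and CDK6 at -0.28 with SAHA. CCNB1 was at -1.11 with largazole and -1.09 with SAHA without probe sets named _x_at or _s_at. Cyclin E1, CCNE1, rose with FK228 (0.38, limma adjusted p = 0.00816), a call that ended without vehicle replicate 1 (0.31). It was at -0.11 with SAHA and fell with largazole (-0.27, limma adjusted p = 0.0389). That fall lost its call under 12 of 18 alternatives, among them averaging of probe sets (-0.1, limma adjusted p = 0.303). The level of CCNE1 with largazole was 0.65 lower than with FK228 on the log2 scale (limma adjusted p = 0.00861). This difference was -0.37 with probe sets averaged, and its call ended without either largazole array.

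Of 17 genes for the turnover of p21, p27 and p57, 3 rose and 8 fell with largazole, 4 and 8 with SAHA, and 3 and 7 with FK228. Over all genes, 21.9% rose and 23.2% fell with largazole, 22.1% and 25.2% with SAHA, and 25.7% and 27.1% with FK228. CUL1, the scaffold of the SCF ubiquitin ligases that mark p27 and p57 for degradation, fell most (-1.95, -1.80 and -2.25). Without probe sets named _x_at or _s_at, CUL1 was at -0.75, -0.49 and -0.77, and its SAHA call ended (limma adjusted p = 0.0819). RCHY1, a ubiquitin ligase known to act on p27, fell (-0.61, -0.86 and -1.24, the last at -0.53 in that setting), and the F-box gene FBXL12, linked to turnover of p21 and p57, rose (0.40, 0.40 and 0.81). Its largazole call ended without largazole replicate 2 or vehicle replicate 1, and its SAHA call without SAHA replicate 2 or vehicle replicate 1 or with probe sets averaged (limma adjusted p = 0.0672 to 0.108 over these). These are transcripts, and protein levels were not measured here.

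Among 17 genes of the RB and E2F group, 2 rose and 8 fell with largazole, 3 and 8 with SAHA, and 2 and 9 with FK228. Over all genes, 21.9% rose and 23.2% fell with largazole, 22.1% and 25.2% with SAHA, and 25.7% and 27.1% with FK228. The repressive factors E2F5 (-1.23, -1.28 and -1.35) and E2F8 (-1.02, -1.13 and -1.53) fell most, and E2F5 was at -0.66, -0.65 and -0.84 with its probe sets averaged. The fall was not particular to repressive factors. E2F2 (-0.90, -0.81 and -1.15) and E2F3 (-0.85, -0.81 and -1.24) fell with each compound too, while E2F1 was not called (0.048, -0.05 and 0.11). RB1 itself rose with largazole (0.60, limma adjusted p = 0.0333) and SAHA (0.58, limma adjusted p = 0.0365) but lost both calls without vehicle replicate 2, the first also without largazole replicate 1 and the second without SAHA replicate 1 (limma adjusted p = 0.173 to 0.196 over these), and was at 0.18 with FK228 (limma adjusted p = 0.458). Of 18 tested genes that E2F factors drive in S phase, 3 rose and 8 fell with largazole, 3 and 10 with SAHA, and 4 and 10 with FK228, with list medians of -0.21, -0.28 and -0.34. The replication helicase genes MCM2 (-1.04, -1.08 and -0.85), MCM3 (-0.93, -1.01 and -0.99) and MCM5 (-0.95, -1.14 and -0.82) fell. The replication licensing factor CDC6 (0.70, 0.83 and 0.98), thymidine kinase, TK1 (0.56, 0.46 and 0.51), and the ribonucleotide reductase subunit RRM2 (0.36, 0.50 and 0.45) rose, so the list did not move as a whole. CDC6 was at 0.41 and RRM2 at 0.70 with largazole without probe sets named _x_at or _s_at.

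The transcription factors known to act on the inhibitor genes changed in both directions. Of 22 tested activators, 5 rose and 7 fell with largazole, 4 and 7 with SAHA, and 4 and 9 with FK228. Over all genes, 21.9% rose and 23.2% fell with largazole, 22.1% and 25.2% with SAHA, and 25.7% and 27.1% with FK228. ETS1, an activator of the p16 promoter, rose (1.48, 1.34 and 1.14), as did FOXO1, which acts on CDKN1B and CDKN1A (0.93, 1.07 and 0.77, and 0.56, 0.63 and 0.51 with probe sets averaged). SMAD3, which carries the TGF-beta signal to CDKN2B and CDKN1A, fell (-1.53, -1.48 and -2.36, and -0.72, -0.82 and -1.14 averaged). SP1 (-0.63, -0.75 and -0.73) and SP3 (-0.44, -0.60 and -1.29), chosen for mention after their values were seen, fell with each compound. SP3 was at -0.26, -0.16 and -0.52 with probe sets averaged, its SAHA call then lost (limma adjusted p = 0.0934). The largazole call of SP3 ended without any of the 4 arrays compared (limma adjusted p = 0.0505 to 0.178), and its SAHA call without SAHA replicate 2 or vehicle replicate 1 (limma adjusted p = 0.0559 and 0.0653). Between largazole and FK228, 6 of the 22 activators were higher with largazole and 0 lower, beside 4.88% and 4.19% of all genes. Among the 6 were SMAD3 (0.83, limma adjusted p = 0.00533) and SP3 (0.84, limma adjusted p = 0.0154). With probe sets averaged these differences were 0.42 and 0.26. The SMAD3 call ended without largazole replicate 1 (limma adjusted p = 0.0588), and the SP3 call without largazole replicate 1, largazole replicate 2 or FK228 replicate 2 (limma adjusted p = 0.0685 to 0.111).

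Of 18 tested repressors of the inhibitor genes, 2 rose and 7 fell with largazole, 2 and 6 with SAHA, and 2 and 6 with FK228. Over all genes, 21.9% rose and 23.2% fell with largazole, 22.1% and 25.2% with SAHA, and 25.7% and 27.1% with FK228. The helix-loop-helix inhibitors ID1 (-0.76, -0.84 and -1.57) and ID3 (-1.40, -1.36 and -1.74), which oppose the activation of CDK inhibitor genes, were the lowest. HDAC3, itself a histone deacetylase and so of the enzyme family that the compounds inhibit, rose (0.50, 0.69 and 0.72). TBX3, a repressor of the ARF and p21 genes, rose too (0.54, 0.35 and 0.27), but with its probe sets averaged it was at 0.27, 0.13 and 0.14 and called with largazole alone. Its SAHA call also ended without SAHA replicate 2 or vehicle replicate 2 (limma adjusted p = 0.0544 and 0.0791), and its FK228 call without FK228 replicate 1, FK228 replicate 2 or vehicle replicate 2 (limma adjusted p = 0.0768 to 0.162). MYC, a repressor of CDKN1A and CDKN2B chosen for mention after its values were seen, fell by 0.31, 0.51 and 1.34 on the log2 scale with largazole, SAHA and FK228. Its largazole call ended without any of the 4 arrays compared (limma adjusted p = 0.0805 to 0.152).

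**Figure D5:**
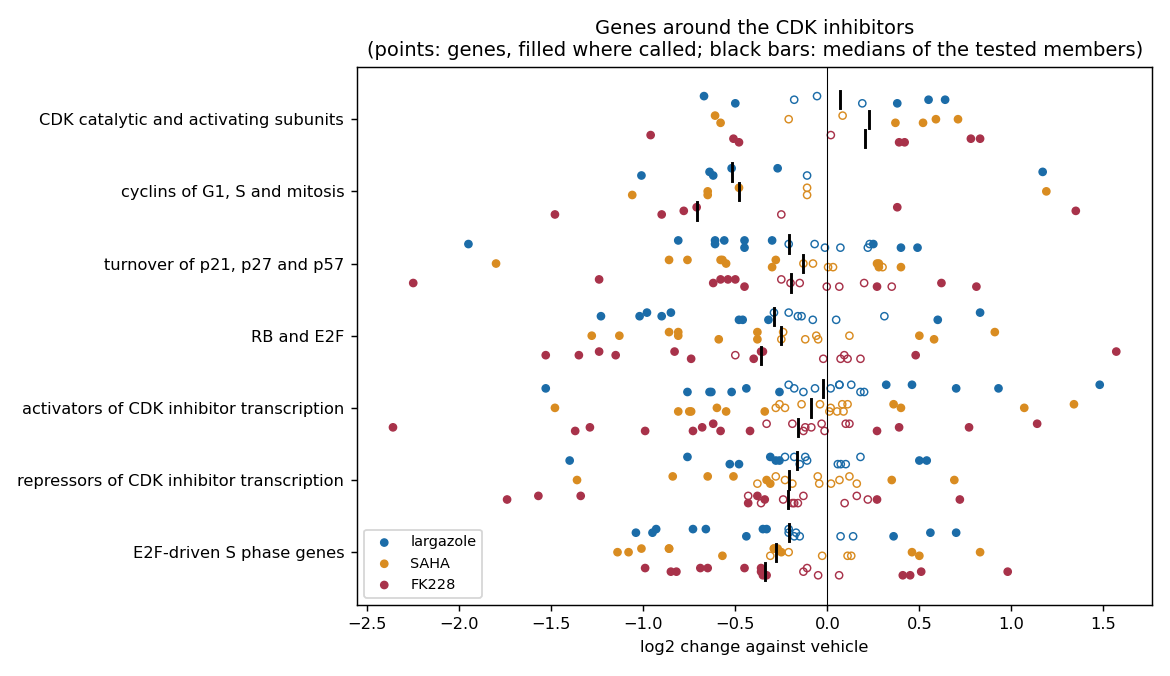
Log2 change against vehicle (x axis) of the tested genes of 7 lists by role (y axis) with largazole, SAHA and FK228; points are genes, filled where called, and black bars are medians of the tested members. Every list holds genes on both sides of 0.

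The genes whose pattern over the 8 arrays lay closest to each inhibitor gene were found by the root mean square difference of log2 values, each gene set against its own vehicle mean. For CDKN1A these were IFT52, RGMB and SH3BGR, at 0.052 to 0.0574 log2 units. For CDKN1C they were NPC1, RPS6KA2 and FAM117A (0.121 to 0.149), and for CDKN2D ELOVL3, ZNF557 and HEY2 (0.105 to 0.155). CDKN2B, the noisiest, was matched less closely, by HS3ST3B1, KLHL32 and DNAI3 (0.23 to 0.285). GNAI1, TACC2 and CPOX lay closest to CDKN1B (0.0752 to 0.117). Their lower values with FK228 (-1.76, -1.69 and -1.82) than with largazole (-0.98, -1.04 and -1.05) follow from this choice by closeness. The small fall of CDKN2A was matched by APEX1, PCCB and TBC1D5 (0.0224 to 0.0352). None of the 6 inhibitor genes was among the 3 closest to another. With only 3 picked from 13381 genes, this says little about how alike the inhibitor genes are.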

How the data were processed

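RNA of 8 HCT116 samples was measured on Affymetrix U133 Plus 2.0 arrays. The deposited values are log2 probe set levels. Per the submitters' processing notes the tools were affy, RMA and limma, without versions; the step each served is not given in the sources used. Groups came from the labels.

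Of 54613 probe sets, 41091 have exactly 1 gene symbol in the platform's annotation. The filter on low values (second-highest of 8 values at or above 4.49) left 28985 probe sets and 13381 genes. A joint model of the 8 arrays with a term per group was fitted in limma (version 3.58.1, under R 4.3.3; 4 residual and 3.69 prior degrees of freedom) and Benjamini-Hochberg adjustment over the tested probe sets of each comparison. An adjusted p under 0.05 was called. Scripts were tested on simulated data. With so few arrays precision was limited, the median half-width of the 95% confidence interval of a log2 change being 0.257. No exact permutation test was run, since with 2 arrays a side its two-sided p is at least 0.333. Tables and figures used Python 3.11.15, pandas 2.3.3 and matplotlib 3.10.9.

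The members, gene lists and rules were chosen with earlier results of these data known. Named genes were drawn from the members, up to 2 highest and 2 lowest called genes of each list per compound, the 3 genes closest in pattern to each called member, and neighbouring genes called with a compound. Not every list gene or neighbour that meets this rule is described. Others are given as chosen later or as uncalled neighbours. Gene and promoter coordinates are from RefSeq (GRCh38.p14). Alternatives tried were dropping the filter or raising it to 6.87, a robust prior with an intensity trend, array weights, a replicate block, scaling to equal ribosomal protein medians, quantile normalization, leaving out _x_at and _s_at probe sets, averaging a gene's probe sets, fitting only the 4 arrays compared, and leaving out each array.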

Additional observations from a re-analysis of the deposited data

How the results depend on the processing

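Over 18 alternatives, the log2 changes of the 6 CDK inhibitor genes gave 388 values with the direction and call unchanged, 31 with the call lost and 1 reversed. The reversed value was that of CDKN2B, largazole against FK228, with the mean of all probe sets (-0.083, limma adjusted p = 0.841). That setting also ended the CDKN2D difference between these compounds (-0.32, limma adjusted p = 0.115). The fall of CDKN2A with FK228 lost its call without a filter (-0.24, limma adjusted p = 0.13), with array weights (-0.24, limma adjusted p = 0.0519), at equal ribosomal protein medians (-0.19, limma adjusted p = 0.125), after quantile normalization (-0.23, limma adjusted p = 0.0607), with the mean of all probe sets (-0.12, limma adjusted p = 0.23) and with only the 4 arrays compared (-0.24, limma adjusted p = 0.0941). With each array left out in turn, CDKN2A ranged from -0.37 to -0.30 with largazole, -0.42 to -0.32 with SAHA and -0.30 to -0.19 with FK228, and CDKN2B from 0.95 to 1.86 with FK228. Largazole minus FK228 then ranged from 0.72 to 0.89 for CDKN1B, -0.49 to -0.46 for CDKN1C and -0.90 to -0.60 for CDKN2D, with 0 to 3 of the 6 genes called. The array left alone in its group was taken to have the spread of the remaining groups. The cause of these lost calls was not tested. The replicate block could not move a log2 change, since each group holds 1 array of each number. The calls of all 28 values for the inhibitor genes held (CDKN1B with largazole at -1.04, limma adjusted p = 0.000238). The limma adjusted p-values did move, for CDKN2B with FK228 from 0.0103 to 0.0199. Deviations of same-numbered arrays correlated at 0.128 to 0.268, but the labels do not say that numbers pair the arrays. CDKN1A and CDKN2D have no tested probe set without those named _x_at or _s_at, and CDKN2B has none under the stricter filter. Of 185 called changes of other genes that the naming rule covers or that were chosen later, described or not, 53 lost the call or reversed under at least 1 alternative. Those that reversed, without probe sets named _x_at or _s_at, were LIN37 with largazole (-0.17) and SAHA (-0.40) and RCHY1 in largazole against FK228 (-0.20). Counts of called list genes moved by over 1.5 times in 69 values and stayed within that in 435. Low signal limits CDKN2B, CDKN2A-AS1, APOLD1 and the 4 untested probe sets, and 2 arrays per group limit every comparison.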

Other observations

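Other genes, whose products restrain CDKs or which are named after an inhibitor gene, were listed after the values above had been seen. Their counts therefore support nothing about the inhibitor family. All 12 were tested: 5 rose and 3 fell with largazole, 5 rose and 5 fell with SAHA, and 5 rose and 4 fell with FK228. Over all genes, 21.9% rose and 23.2% fell with largazole, 22.1% and 25.2% with SAHA, and 25.7% and 27.1% with FK228. CDKN3, a phosphatase that acts on CDK2 and carries an inhibitor's name without belonging to either branch, rose by 0.91 ± 0.093 with largazole (SE, n = 2), 0.90 with SAHA and 0.97 with FK228 (limma adjusted p = 0.00021, 0.000192 and 8.99e-05). CDK2AP2, a CDK2-associated protein, rose by 1.24, 1.05 and 1.59, and CDKN2AIP, a binding partner of ARF, by 1.08, 1.19 and 1.51. CABLES2 rose (1.09, 0.77 and 1.37) while its paralog CABLES1, an adaptor for inhibitory CDK phosphorylation, fell (-0.85, -0.95 and -1.09). CABLES1 was at -0.33, -0.44 and -0.48 with its probe sets averaged.

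The inhibitory kinase WEE1, which phosphorylates CDK1 and CDK2, fell by 1.08 with largazole, 1.21 with SAHA and 1.65 with FK228 on the log2 scale, and its difference between largazole and FK228 was 0.57 ± 0.11 (limma adjusted p = 0.0216), or 0.34 with probe sets averaged, a call that ended without largazole replicate 1, largazole replicate 2 or FK228 replicate 2. Its relative PKMYT1 was at -0.019, -0.27 and -0.16, called with SAHA alone (limma adjusted p = 0.0268), a call that ended without any of the SAHA or vehicle arrays. HEXIM1, which restrains the elongation kinase CDK9, was at 0.19, 0.26 and 0.052, with a SAHA call (limma adjusted p = 0.0445) that ended without any of the SAHA, vehicle or largazole arrays. HEXIM2 fell (-0.55, -0.46 and -0.49), with each call ending without vehicle replicate 2 (limma adjusted p = 0.0774, 0.125 and 0.0882). Its calls also ended without largazole replicate 2, either SAHA array or vehicle replicate 1 (SAHA), and FK228 replicate 1, and it was at -0.23 with largazole with probe sets averaged.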
